A study of Mus musculus with 3 samples.

Results

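Antigen presentation genes were examined in microglia, macrophages that reside in the brain. The genes were the rows whose symbol begins with H2-, the mouse major histocompatibility complex (MHC), together with B2m, Tap1, Tap2, Tapbp, Tapbpl, Erap1, Cd74, Ciita, Nlrc5, Cd1d1, Mr1, Cd80 and Cd86. This gave 56 of the 24411 genes in the table, 43 of them with an H2 symbol. The microglia came from brains of C57BL/6J mice labelled as 6 to 8 weeks old, with the genotype cKO and the treatment Pu.1 inhibitor. In the series design cKO stands for Mir137loxP/loxP;Tmem119-CreERT2, a floxed Mir137 with a tamoxifen-dependent Cre under Tmem119, a gene of microglia, and tamoxifen was injected on 7 days at 7 to 8 weeks of age. Mir137 is a microRNA gene. Pu.1, encoded by Spi1, is a transcription factor of macrophages. There were 3 RNA-seq libraries in 1 group, replicates 1 to 3, with no comparison group analysed here, so levels are described, and neither the deletion nor the inhibitor could be assessed. The design text gives 4 mice without assigning them to libraries, and no label ties a replicate to its own animal, so the spread given here may be technical. The sources used here do not name the inhibitor or give its dose and route.

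MHC class I molecules consist of a polymorphic heavy chain and the light chain beta-2-microglobulin, and they display peptides that the TAP transporter brings into the endoplasmic reticulum. MHC class II molecules consist of an alpha and a beta chain, are held by the invariant chain Cd74 until they reach endosomes, and take up peptide there with the help of H2-DM. Resting microglia are known for low surface class II, which rises on activation, and the transactivators Ciita and Nlrc5 drive transcription of class II and class I genes through shared promoter elements.

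The libraries held 15710750 to 17180404 estimated counts. All 7 microglial marker genes examined were detected, meaning an FPKM (fragments scaled to transcript length and library size) of at least 1 in all 3 libraries. Their summed level was 9893 to 10497 FPKM, so the labelled cell type was represented. Markers of other cells were detected too, with summed levels of 13270 to 14671 FPKM for 6 neutrophil genes, 6222 to 7100 FPKM for 4 choroid plexus genes and 1426 to 1575 FPKM for 5 endothelial genes. Class I genes are expressed by nearly all nucleated cells, and how much of their RNA came from these cells was not tested. For a gene without a count, 3 counts set the upper limit, 0.175 to 0.191 CPM (counts scaled to library size), which covers counting error only.

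The presentation genes took 0.568 ± 0.018% of all counts (SD, n = 3). Of the 56 genes 34 were detected, or 60.7%, against 47.8% of all 24411 genes. Another 7 had some counts without reaching that level, and 15 had none. The light chain gene B2m alone held 39.9 ± 0.56% of the counts of the 56 genes. Only 8 of the 56 had a mean of at least 100 FPKM, and these were B2m, H2-D1, H2-K1, Cd74, H2-T23, H2-Aa, Cd86 and Tapbp.

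Promoters of 4 class I and 2 class II chains compared below are shown because class I and class II genes share promoter elements. H2-Ab1 was not among the promoters used here. The sequences are RefSeq promoters on GRCm38.p6, 250 bases before the start of the gene, with capitals marking matches to any of 5 motifs on either strand. The motifs were the palindromic kappa B site known from class I enhancers, ATTGG (the Y box, which is a CCAAT box on the other strand), TGACG (the core of the X2 box or cyclic AMP response element), the interferon response element and GAGGAA (the core of a PU box). For H2-K1 the first of the tabulated starts was used, and RefSeq starts can lie inside the wider GENCODE gene bounds given below.
H2-K1 (chr17:34000348-34000597, minus strand): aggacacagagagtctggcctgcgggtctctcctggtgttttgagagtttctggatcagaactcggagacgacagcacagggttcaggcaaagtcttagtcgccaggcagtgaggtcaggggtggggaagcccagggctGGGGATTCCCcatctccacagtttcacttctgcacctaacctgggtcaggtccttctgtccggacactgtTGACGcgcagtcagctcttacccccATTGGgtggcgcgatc
H2-D1 (chr17:35262844-35263093, plus strand): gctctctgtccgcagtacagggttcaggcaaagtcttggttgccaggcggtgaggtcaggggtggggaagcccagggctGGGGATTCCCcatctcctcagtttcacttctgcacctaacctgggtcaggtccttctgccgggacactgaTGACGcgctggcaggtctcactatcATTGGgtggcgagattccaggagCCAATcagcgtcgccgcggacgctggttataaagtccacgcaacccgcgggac
B2m (chr2:122147437-122147686, plus strand): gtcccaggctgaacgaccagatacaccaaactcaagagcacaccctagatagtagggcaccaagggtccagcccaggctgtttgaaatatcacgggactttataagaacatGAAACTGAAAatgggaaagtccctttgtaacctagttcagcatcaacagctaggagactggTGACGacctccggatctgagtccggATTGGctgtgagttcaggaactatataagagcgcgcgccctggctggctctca
H2-T23 (chr17:36032702-36032951, minus strand): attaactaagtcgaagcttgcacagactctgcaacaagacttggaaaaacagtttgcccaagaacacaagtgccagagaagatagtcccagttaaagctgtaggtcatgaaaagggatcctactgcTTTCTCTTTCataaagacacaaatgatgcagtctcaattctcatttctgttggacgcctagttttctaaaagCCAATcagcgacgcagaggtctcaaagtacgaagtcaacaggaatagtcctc
H2-Aa (chr17:34287824-34288073, minus strand): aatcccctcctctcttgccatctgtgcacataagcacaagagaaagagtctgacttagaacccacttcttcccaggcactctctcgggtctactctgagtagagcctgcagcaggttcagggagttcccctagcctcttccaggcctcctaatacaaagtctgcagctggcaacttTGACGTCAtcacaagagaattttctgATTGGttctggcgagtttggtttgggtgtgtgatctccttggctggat
H2-Eb1 (chr17:34305617-34305866, plus strand): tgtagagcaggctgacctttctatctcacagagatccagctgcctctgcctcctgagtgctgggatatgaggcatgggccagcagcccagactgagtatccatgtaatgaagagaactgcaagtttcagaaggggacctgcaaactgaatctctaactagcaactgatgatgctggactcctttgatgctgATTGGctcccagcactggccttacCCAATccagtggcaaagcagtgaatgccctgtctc

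Promoters were available for 37 of the 56 genes. A gene was counted as holding a motif or pair if any of its tabulated promoters matched. The share of all promoters counts each promoter by itself, so the measures are unlike and the genes' share can be raised. The kappa B letters were found in 4 of these 37, H2-K1, H2-D1, H2-Q6 and H2-Q7, and in 0.0852% of all 32851 promoters of the same length. ATTGG occurred in 31 of 37 (83.8%), against 33.8% of all promoters. It did not separate detected from silent genes, with 19 of 23 detected and 10 of 12 genes without a count holding it. TGACG occurred in 14 of 37 (37.8%) and in 17.8% of all promoters. In H2-Aa it overlapped its own reverse complement, which makes 1 longer capital run. In H2-K1, H2-D1 and B2m the starts of TGACG and ATTGG lay exactly 25 bases apart, with TGACG at positions -41, -101 and -78. The H2-K1 and H2-D1 promoters were closely alike around these sites. Their kappa B letters, at -111 and -171, lay at the same distance before TGACG, so these 2 are not separate instances of the spacing. A TGACG and ATTGG pair 23 to 26 bases apart was found in 6 of 37, against 0.219% of all promoters. The 6 were B2m, H2-Aa, H2-D1, H2-K1, H2-M3 and H2-Q7, all detected, with related genes counted separately. That spacing was noticed in the printed sequences and is a description. For the interferon response element, the search and the capitals above used a single fixed letter pattern. That pattern was in B2m, H2-T22 and H2-T23 (3 of 37, 8.11%), against 2.98% of all promoters. Variant forms of the element were not searched. Promoters without a match, those of H2-K1 and H2-D1 among them, may therefore still hold a variant within the 250 bases. GAGGAA was in 5 of 37 (13.5%), H2-DMb1, H2-M2, H2-M3, H2-M5 and H2-T22, against 23.3% of all promoters. A letter match is no evidence of binding, and the absence of one says nothing about a factor outside this window.

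Class I genes were the most abundant of the 56. B2m (chr2:122147686-122153083) was at 3801, 4094 and 3892 FPKM in replicates 1, 2 and 3 (3929 ± 149.8, SD, n = 3), which placed it at rank 9 of all genes in FPKM and at rank 34 in CPM. Of the classical heavy chains, which present peptides to CD8 T cells, H2-D1 (chr17:35262730-35267499) was at 436, 467 and 425 FPKM (443 ± 22.1). H2-K1 (chr17:33996017-34000347) was at 339.9, 367 and 351 FPKM (353 ± 13.8). H2-D1 lay above H2-K1 in all 3 libraries and their ranges did not overlap. Their ratio in FPKM was 1.25 ± 0.039 (SD, n = 3), and B2m exceeded the sum of both heavy chains by 4.94 ± 0.067 times in FPKM. That ratio was 4.90, 4.91 and 5.02 in replicates 1, 2 and 3. Its log2 was 2.30 in FPKM and 1.01 in CPM, since B2m has the short effective length of 578 nt.

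Genes that load peptide onto class I were all detected, 5 of 5, and all lay below the classical heavy chains in FPKM. Tapbp, or tapasin, which holds class I at the transporter, was at 105 ± 2.05 FPKM. The aminopeptidase Erap1, which trims peptides, was at 41.8 ± 3.29 FPKM. Both transporter subunits were close, with Tap1 at 32.4, 34.9 and 31.6 FPKM in replicates 1, 2 and 3 (32.9 ± 1.71). Tap2 was at 35.2, 35.6 and 35.7 FPKM (35.5 ± 0.27). Tap1 stayed below Tap2 in each library, at a ratio of 0.928 ± 0.048 in FPKM, but this direction turned round in CPM, which is not per length. The tapasin relative Tapbpl was at 20.5 ± 1.81 FPKM.

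**Figure D1:**
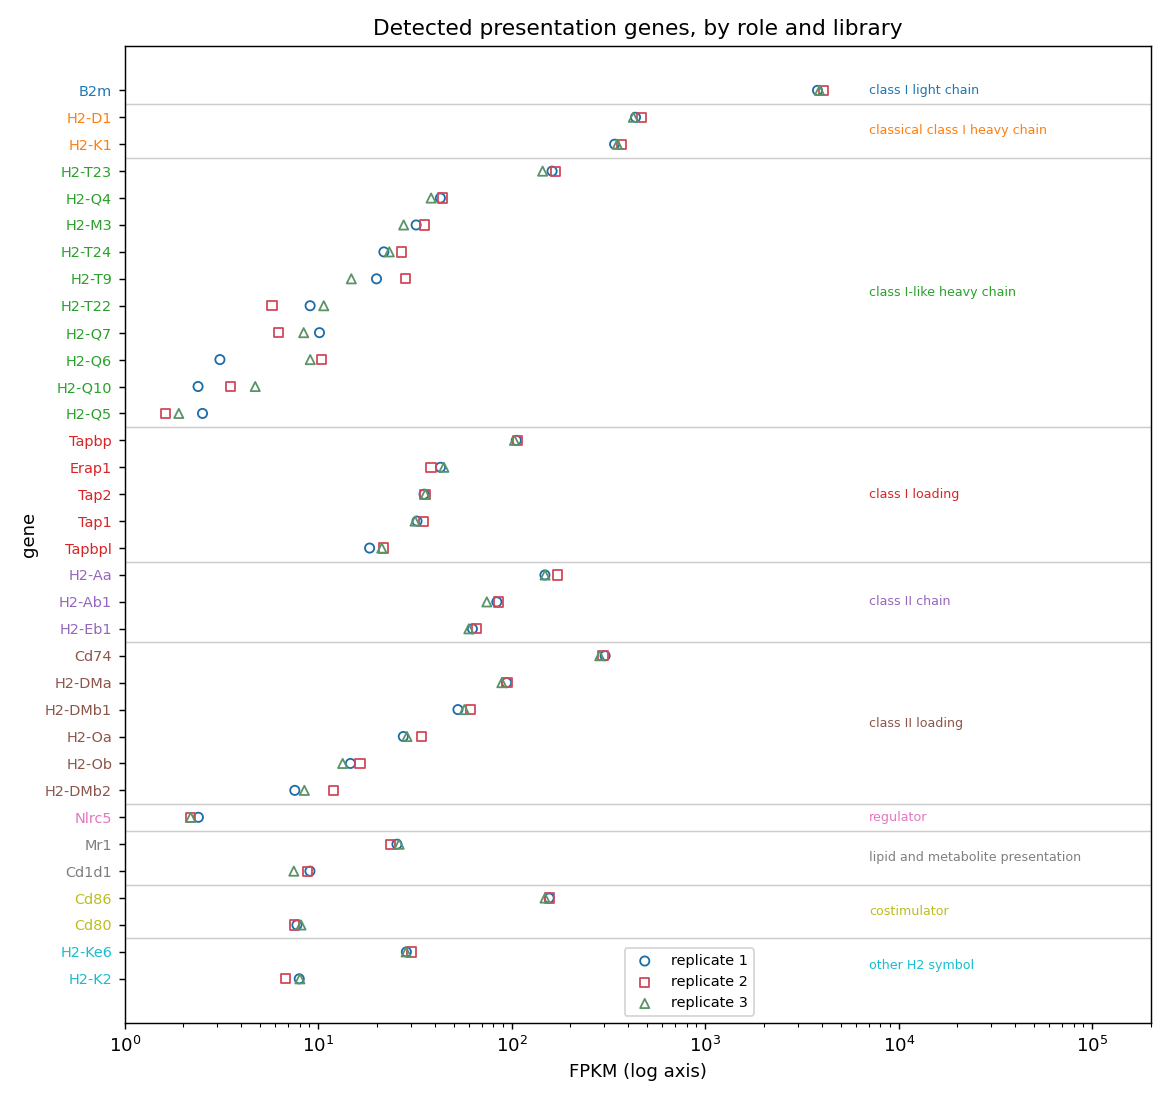
Level of each of the 34 detected genes in FPKM on a log axis, grouped by role, with 1 symbol per library. B2m stands apart at 3801 to 4094 FPKM, and the symbols of H2-Q6, H2-T9, H2-T22 and H2-Q10 are spread more widely than those of abundant genes.

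The class I-like heavy chains, which have few alleles and specialised ligands, were mostly silent or low. Of 28 such symbols 10 were detected, 4 had counts but were under 1 FPKM in at least 1 library, and 14 had no count. H2-T23, which encodes the Qa-1 molecule recognised by inhibitory NK receptors, was far above the rest at 161, 169 and 144 FPKM in replicates 1, 2 and 3 (158 ± 12.5). The next was H2-Q4 at 41.6 ± 2.93 FPKM, followed by H2-M3, which presents formylated bacterial peptides, at 31.6 ± 3.85 and H2-T24 at 24.0 ± 2.60 FPKM. H2-Q10, known as a secreted liver protein, was at 2.39, 3.53 and 4.72 FPKM (3.55 ± 1.17) and H2-Q5 at 2.02 ± 0.46 FPKM. H2-T10 had 17, 22 and 41 counts and H2-M2 had 0, 1 and 2 counts. Both H2-Q5 and H2-T10 are annotated as polymorphic pseudogenes. Together the 28 genes reached 312, 338 and 287 FPKM in replicates 1, 2 and 3, less than the 776, 835 and 776 FPKM of H2-K1 and H2-D1 together.

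The genes without a count were H2-Bl, H2-M1, H2-M5, H2-M9, H2-M11, H2-Q1, H2-Q2, H2-T3, H2-Ea-ps and the 6 H2-M10 genes. H2-M10 genes are known from the vomeronasal organ, and H2-T3 encodes the thymus leukaemia antigen of thymus and intestine. Among the members on chromosome 17, H2-T3, the H2-M10 genes, H2-M11, H2-M9, H2-M1 and H2-M5 lay next to one another between H2-T10 and H2-M3.

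**Figure D2:**
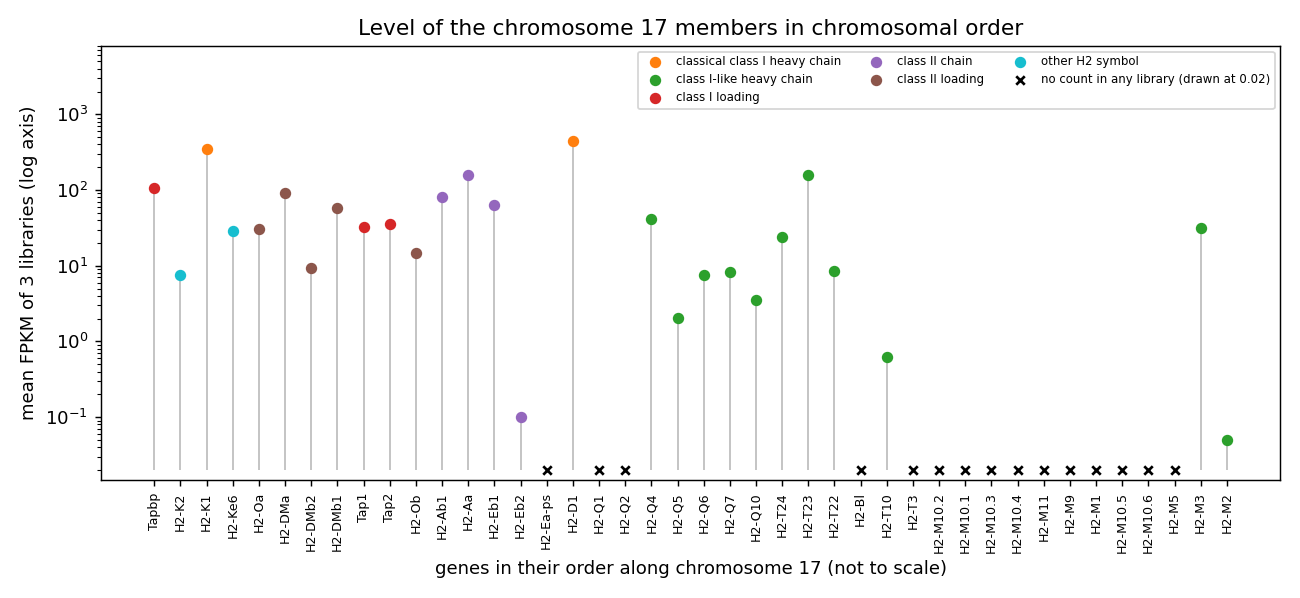
Mean FPKM of 3 libraries for the members on chromosome 17, on a log axis, in chromosomal order and not to scale. Crosses mark the 15 genes with no count, drawn at 0.02, most of which sit side by side between H2-T10 and H2-M3.

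Class II chains were detected at intermediate levels. H2-Aa (chr17:34282744-34287823), the alpha chain of I-A, was at 148, 172 and 149 FPKM in replicates 1, 2 and 3 (156 ± 13.6). Its partner beta chain H2-Ab1 (chr17:34257689-34269419) was at 83.7, 85.3 and 74.3 FPKM (81.1 ± 5.95), and the I-E beta chain H2-Eb1 (chr17:34305867-34316674) at 62.6, 65.8 and 60.0 FPKM (62.8 ± 2.94). All 3 chains were highest in replicate 2. The alpha chain exceeded its partner by 1.93 ± 0.14 times in FPKM, in 3 of 3 libraries. The I-E alpha chain, listed as H2-Ea-ps, had no count in any library. Mice of the b haplotype, to which C57BL/6J belongs, are known to carry a promoter deletion in this gene and to lack surface I-E. H2-Eb2 had 1, 8 and 6 counts. The ratio of H2-Eb1 to H2-Ab1 was 0.776 ± 0.0298 in FPKM, and it exceeded 1 when taken in CPM. H2-Ab1 stood at 0.230 ± 0.017 of H2-K1 in FPKM.

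All 6 class II loading genes were detected. Cd74 was at 304, 296 and 285 FPKM in replicates 1, 2 and 3 (295 ± 9.51), an excess over H2-Ab1 of 3.64 ± 0.18 times in FPKM. H2-DMa, a chain of the peptide exchange factor, was at 92.4 ± 3.09 FPKM and H2-DMb1 at 57.0 ± 4.37 FPKM, a ratio of 0.617 ± 0.049. The modulators of H2-DM, best known from B cells, were lower, with H2-Oa at 30.1 ± 3.59 and H2-Ob at 14.8 ± 1.54 FPKM.

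Class II genes are also expressed by B cells, dendritic cells and border macrophages, so the markers of those cells were measured in the same libraries. Of 6 B-cell genes only Cd79b was detected, at 16.4 ± 2.96 FPKM, and Ms4a1 and Pax5 were at 0.57 ± 0.36 and 0.043 ± 0.075 FPKM. Of 8 dendritic-cell genes 6 were detected with a summed level of 37.5 to 40.8 FPKM, and Xcr1 and Clec9a were at 0.18 ± 0.04 and 0.25 ± 0.12 FPKM. All 8 border-macrophage genes were detected, with a summed level of 264 to 307 FPKM. All 5 monocyte genes were detected, with a summed level of 575 to 658 FPKM. None of the genes in these 4 lists was at 0 in all libraries. How much class II transcript these cells contributed was not tested, and in a bulk sample fewer cells of a type and less RNA per cell cannot be told apart.

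The transactivators were among the lowest of the genes with counts in FPKM. Ciita (chr16:10480059-10528418) had 43, 41 and 27 counts, or 0.49, 0.52 and 0.34 FPKM, in replicates 1, 2 and 3. Nlrc5 (chr8:94434356-94527272) was detected at 2.40, 2.18 and 2.19 FPKM (2.26 ± 0.12). Ciita was lower in each library, at a ratio to Nlrc5 of 0.199 ± 0.042 in FPKM. Their effective lengths of 5019 and 6669 nt were the longest among the members with counts. In CPM, which is not per length, Nlrc5 was at 15.0, above Cd1d1 at 13.2 and Cd80 at 11.1.

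Presentation of other ligands and costimulation were also measured. Mr1, which presents vitamin B metabolites, was at 25.1 ± 1.34 FPKM, and Cd1d1, which presents lipids to natural killer T cells, at 8.44 ± 0.85 FPKM. The costimulators, both ligands of CD28, were far apart, with Cd86 at 156, 157 and 148 FPKM in replicates 1, 2 and 3 (154 ± 4.50). Cd80 was at 7.75, 7.54 and 8.14 FPKM (7.81 ± 0.30). Cd80 stood at 0.0509 ± 0.0035 of Cd86 in FPKM. The rule also took up H2-K2, annotated as a transcribed pseudogene, at 7.60 ± 0.70 FPKM and H2-Ke6 at 29.1 ± 1.09 FPKM. H2-Ke6 lies in the MHC but encodes a hydroxysteroid dehydrogenase, and 70.5% of its 50-base words also belong to the overlapping gene Gm20427.

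**Figure D3:**
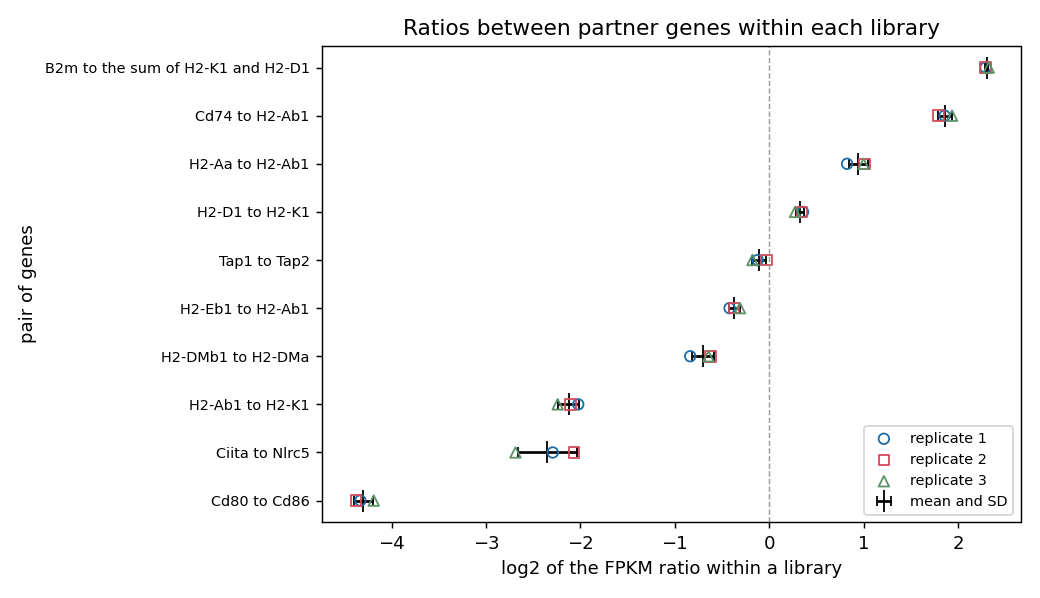
Log2 of the FPKM ratio between partner genes, with 1 symbol per library and a bar for the mean and SD. All 10 ratios keep their side of 0 in the 3 libraries, and Ciita to Nlrc5 has the widest spread, -2.35 ± 0.31.

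Each of the 10 ratios had the same direction in 3 of 3 libraries. A two-sided permutation test with exact sign flips gave p = 0.25 for each, before and after Benjamini-Hochberg adjustment over the 10. With 3 libraries no smaller p exists, and 0.05 was out of reach. Ordered by mean FPKM, 14 of the 33 neighbouring pairs of detected genes had ranges that did not overlap. The 5 highest were set apart from one another in this way (B2m, H2-D1, H2-K1, Cd74 and H2-T23), whereas H2-T23, H2-Aa and Cd86 could not be ordered. From H2-DMb2 at 9.34 ± 2.35 FPKM downwards no neighbouring pair was separated.

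Of 29 other genes of the pathway 28 were detected, against 47.8% of all genes. In the chi-square test described below 16 of the 29 differed between libraries, against 41.4% of all genes tested. The highest were the endosomal protease genes Ctss and Lgmn, which process the invariant chain and antigens, at 3833 ± 139 and 2668 ± 95.8 FPKM, and the interferon-gamma receptor gene Ifngr1 at 573 ± 5.69 FPKM. The lowest was Cd40, a receptor for T-cell help, at 0.87, 2.62 and 1.80 FPKM in replicates 1, 2 and 3. The median of mean levels was 8.03 FPKM over the 56 presentation genes and 63.3 FPKM over these 29. These medians are not like for like. The 56 came from a symbol rule that took in 15 genes without a count, while the 29 were chosen by name.

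Reads of near-identical genes were divided between symbols. Estimated counts were not whole in at least 1 library for 11 of the 56 genes (19.6%), against 4.93% of all genes. These fell into 5 sets whose sums were whole in every library to within 0.011 counts. The Qa-2 genes H2-Q6, H2-Q7, H2-Q8 and H2-Q9 summed to 284, 323 and 279 counts in replicates 1, 2 and 3. H2-T22 and H2-T9, of a group known as ligands of gamma-delta T cells, summed to 697, 735 and 587. H2-DMb1 and H2-DMb2 summed to 974, 1061 and 1004 counts, H2-D1 and H2-L to 10917, 10697 and 10124, and Cd1d1 with its relative Cd1d2, which is not a member, to 243, 222 and 195.

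The sequences below show how little separates some of the H2 genes, whether or not they fell into the same set. They are the first 90 bases of the second coding exon in GENCODE M21 transcripts on GRCm38, with capitals at bases that differ from the partner in the line above or below.
H2-DMb1 (chr17:34155433-34155522, plus strand): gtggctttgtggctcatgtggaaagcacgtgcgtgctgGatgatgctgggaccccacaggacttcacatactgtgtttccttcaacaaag
H2-DMb2 (chr17:34147651-34147740, plus strand): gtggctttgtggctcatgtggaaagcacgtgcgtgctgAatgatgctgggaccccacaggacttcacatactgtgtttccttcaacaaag
H2-T22 (chr17:36042039-36042128, minus strand): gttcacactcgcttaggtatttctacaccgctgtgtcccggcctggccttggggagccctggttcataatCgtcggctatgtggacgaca
H2-T10 (chr17:36120786-36120875, minus strand): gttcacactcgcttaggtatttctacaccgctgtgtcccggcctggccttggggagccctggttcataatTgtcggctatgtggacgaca
H2-Q6 (chr17:35425108-35425197, plus strand): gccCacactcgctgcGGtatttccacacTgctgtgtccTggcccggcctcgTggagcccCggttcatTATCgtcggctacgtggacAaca
H2-Q7 (chr17:35439452-35439541, plus strand): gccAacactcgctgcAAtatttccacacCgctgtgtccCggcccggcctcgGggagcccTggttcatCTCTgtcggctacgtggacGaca
H2-K1 (chr17:33999914-34000003, minus strand): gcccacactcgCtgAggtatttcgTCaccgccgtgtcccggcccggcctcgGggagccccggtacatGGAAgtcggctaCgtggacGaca
H2-D1 (chr17:35263379-35263468, plus strand): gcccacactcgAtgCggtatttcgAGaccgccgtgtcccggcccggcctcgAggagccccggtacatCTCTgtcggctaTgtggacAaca

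H2-DMb1 and H2-DMb2 differed at 1 of 90 bases, as did H2-T22 and H2-T10. H2-T22 with H2-T10 and H2-K1 with H2-D1 were not read-sharing sets, and H2-T10 and H2-K1 had whole counts in every library. H2-Q6 and H2-Q7 differed at 12, and H2-K1 and H2-D1 at 11 of 90. Over whole transcripts, 22.7% of the 50-base words of H2-DMb1 also occurred in H2-DMb2, and 31.2% of those of H2-T22 in H2-T10. Of H2-D1 12.8% and of H2-K1 9.63% occurred in some other gene, while B2m, Cd74, H2-Ab1 and H2-Eb1 shared none. For H2-Q5 the share was 36.4% and for H2-Q10 19%, most often with H2-Q7. Whether the low counts of H2-Q5 and H2-Q10 came from reads of other genes was not tested. H2-L, H2-Q8, H2-Q9 and H2-T9 had no sequence in the annotation used here. The b haplotype is known to lack an H2-L gene, and H2-L had 14.7, 28.2 and 12.1 estimated counts against 10902, 10669 and 10112 for H2-D1.

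For the Qa-2 genes and the H2-T9 and H2-T22 pair, single genes varied more between libraries than their sum. H2-Q9 had 0, 101 and 57.7 and H2-Q8 76.3, 25.0 and 0 estimated counts in replicates 1, 2 and 3, so each was listed at 0 in 1 library. H2-Q6 was at 3.10, 10.4 and 9.08 FPKM, a mean of 7.53 ± 3.89 and a coefficient of variation (CV, SD over mean) of 51.7%. H2-Q7 was at 10.1, 6.21 and 8.40 FPKM, a mean of 8.25 ± 1.97 and a CV of 23.9%. The 4 Qa-2 genes together were at 19.3, 24.0 and 20.3 FPKM, a CV of 11.6%. H2-T9 was at 20.0, 28.2 and 14.8 FPKM (21.0 ± 6.77) and H2-T22 at 9.07, 5.76 and 10.7 FPKM, so that H2-T9 was highest and H2-T22 lowest in replicate 2. Their CVs were 32.2% and 29.5%, against 14.5% for their sum. H2-DMb2, at 9.34 ± 2.35 FPKM, had a CV of 25.1%, H2-DMb1 one of 7.67% and their sum one of 10.02%. The CV was 4.98% for H2-D1 and 5.13% for its sum with H2-L.

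**Figure D4:**
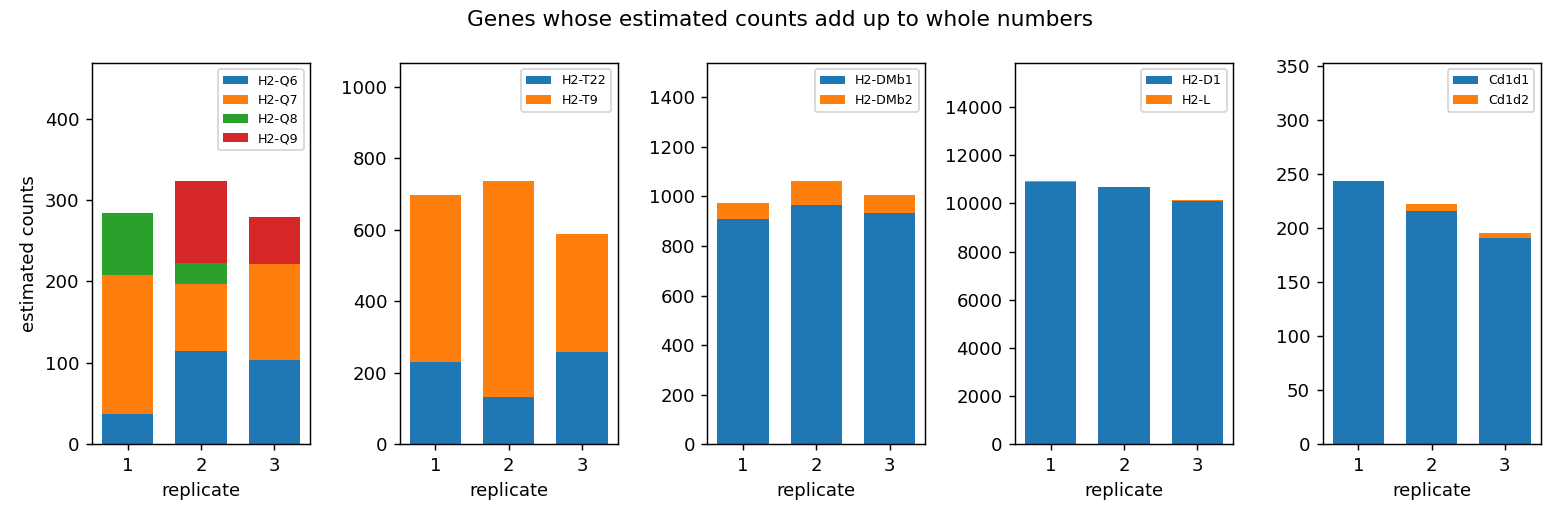
Estimated counts in each library, stacked within the 5 sets of genes whose counts add up to whole numbers. In the Qa-2 set the total is 279 to 323 counts while the parts change places, H2-Q8 being at 0 in replicate 3 and H2-Q9 at 0 in replicate 1.

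Spread between libraries was compared with counting error by a chi-square test of homogeneity over 13246 genes, with Benjamini-Hochberg adjustment at 0.05. It compares libraries, not conditions. Of the 37 presentation genes tested 25 differed between libraries (67.6%), against 41.4% of all genes tested. B2m had an adjusted p of 3.11e-20 in this chi-square test with a CV of only 3.81% in FPKM, since abundant genes reveal small differences. H2-D1 (adjusted p = 2.33e-10 by the same chi-square test) had a CV of 4.98%. Tap2, Tapbp, H2-Eb1, H2-DMa, Cd80, Mr1 and Nlrc5 were among the 12 that did not pass. Of the 9 tested genes in a read-sharing set 8 passed, as did 17 of 28 outside one, and of the 5 summed sets 4 passed, Cd1d1 with Cd1d2 being the exception at an adjusted chi-square p of 0.206. The count of 25 depended on the libraries, with 17, 10 and 14 genes without replicates 1, 2 and 3, against 28.6%, 18.9% and 23.8% of all genes tested.

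Replicate 2 was the highest library for many of these genes. After scaling to effective library size it was highest for 24 of the 37 tested (64.9%), against 35.9% of all genes tested, and for 19 of the 25 that differed, against 37.9% of all genes that differed (15.7% of all genes tested both differed and were highest there). These 19 included H2-K1, H2-D1, B2m, H2-Aa, H2-Ab1, H2-T23 and Cd86, whereas Cd74 was highest in replicate 1 and Erap1 in replicate 3. Transcript length moved with this. Among tested genes with an effective length under 1500 nt replicate 2 was highest for 16 of 23 presentation genes (69.6%) and 55.1% of all 3019 such genes, and above that length for 8 of 14 (57.1%) and 30.2% of all 10218. The summed FPKM of cell markers was also highest in replicate 2 for 9 of the 12 cell types examined, among them microglia (10497), neutrophils (14671), endothelial cells (1575), monocytes (658), border macrophages (307) and oligodendrocytes (205). It was highest in replicate 3 for choroid plexus (7100), dendritic cells (40.8, against 38.0 in replicate 2) and B cells (19.9, against 19.6 in replicate 2). For B cells this order rests on genes that were not detected, since Cd79b was at 18.08 FPKM in replicate 2 and 18.06 in replicate 3. The part of length or of any cell type in the pattern was not tested.

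The median CV of the 34 detected presentation genes was 7.76% in FPKM, against 7.56% for all 11680 detected genes, with a range of 0.774% for Tap2 to 51.7% for H2-Q6. The biological coefficient of variation, which edgeR estimates from counts with sharing of information between genes, had a median of 0.0757 over the 37 tested and 0.0866 over all 13246. It was 0.0495 for B2m, 0.243 for H2-Q6 and 0.124 for H2-T9, and 0.101 and 0.0792 for the summed Qa-2 and H2-T22 sets.

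**Figure D5:**
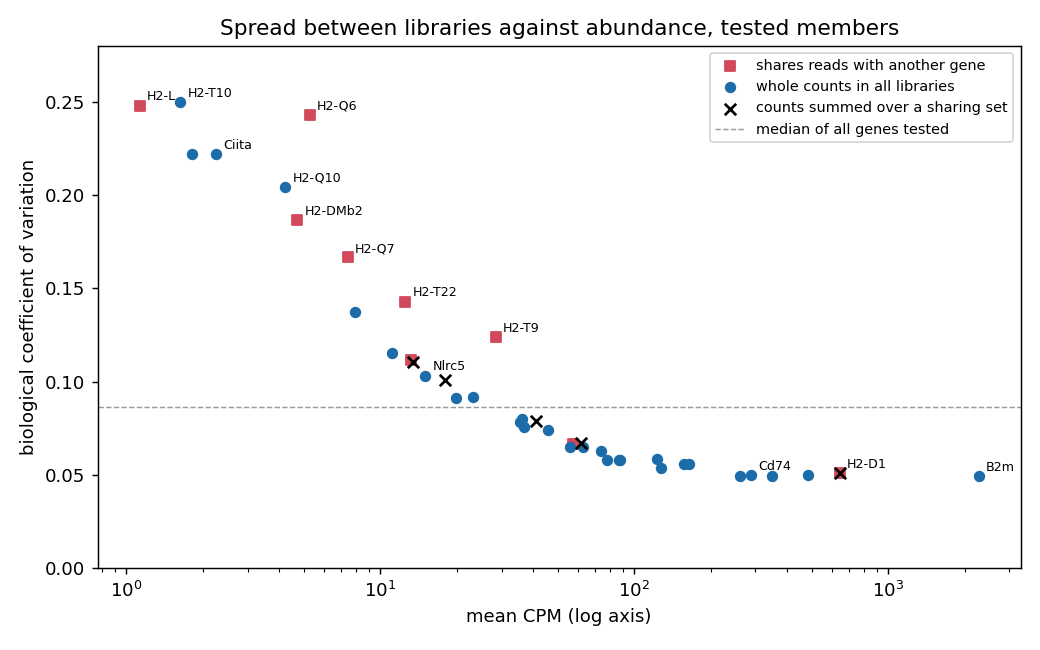
Biological coefficient of variation against mean CPM (log axis) for the 37 tested genes, with crosses for counts summed over a read-sharing set and a dashed line at the median of all genes, 0.0866. H2-Q6 at 0.243 and H2-T9 at 0.124 lie above genes of similar abundance, and the summed sets lie among the genes with whole counts.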

How the data were processed

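RNA-seq of microglia was deposited as gene tables of estimated counts and of FPKM, with 1 column per replicate. The authors deposited estimated counts that were not normalised between libraries, of which 4.07% were not whole, and FPKM values that divide them by library size and effective gene length. The tools were RSEM, STAR 2.7.9a and DESeq2, and the builds GRCm38 and mm10, per the submitters' processing notes. Since settings, annotation and strandedness are not given in the sources used here, reads of antisense or overlapping genes may be mixed. The 12 symbols that a spreadsheet had turned into dates were not used by name.

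The 56 genes, the lists and the tests were chosen with earlier results of these data known. Detection required 1 FPKM or more in each library. Every detected gene and every gene with a count was to be named, with the 3 highest and the lowest of the other pathway genes. Ratios were taken within libraries in FPKM with no pseudocount. Effective lengths were recovered from counts, FPKM and totals. Estimated counts were rounded for edgeR 4.0.16 (R 4.3.3), whose default filter left 13246 genes. TMM normalization was used, and dispersions were fitted on an intercept. The chi-square test (scipy 1.17.1) used the same rounded counts. It was also run on simulated counts that held counting error and set fold changes only. Reads were not divided between genes in that simulation, so it does not cover the read-sharing sets. Alternatives were pseudocounts, CPM in place of FPKM, DESeq2 1.42.0 size factors, library totals, other thresholds and leaving out each library. Coordinates and transcripts came from GENCODE M21 (GRCm38, 52 of 56 symbols matched), promoters from RefSeq on GRCm38.p6.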

Additional observations from a re-analysis of the deposited data

How the results depend on the processing

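Of 67 alternative values over 13 results, 62 kept their direction or size. The number detected was 34 to 37. The ratio of H2-Eb1 to H2-Ab1 (log2) was -0.37 in FPKM and 0.24 in CPM, and that of Tap1 to Tap2 was -0.11 in FPKM and 0.16 in CPM, because CPM is not per length. Leaving out 1 library gave 10 to 17 genes that differed between libraries in place of 25, with fewer libraries compared. The count was 24 to 26 with no filter, DESeq2 size factors or library totals, and 21 of 33 with read-sharing sets summed, an alternative chosen after seeing the data. The presentation genes' share of counts was 0.608% with the 10 most abundant genes left out of the total. The other ratios kept their direction under every alternative run. The ratio itself moved by over 1.5 times, given as log2, for B2m to the summed heavy chains (2.30 in FPKM, 1.01 in CPM), Cd80 to Cd86 (-4.30 in FPKM, -4.97 in CPM) and Ciita to Nlrc5 (-2.35, and -1.17 with a pseudocount of 1). No paired analysis was possible because the libraries form 1 group. Depth limits Ciita, H2-Eb2, H2-M2, H2-Q5, H2-T10 and H2-L, which had 0 to 43 counts per library.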
